A study of Mus musculus with 8 samples.

Results

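The comparison described here is that between Lmna mutant and wild-type spleens 7 days after 4 Gy of irradiation, and it rests on 4 of the 8 RNA-seq libraries of the series. The groups were chosen by their labels: 2 libraries from wild-type mice and 2 from Lmna R527C mutant mice. All 4 came from spleens of C57BL/6 mice, 6 weeks old by their labels, irradiated with 4 Gy and sampled at day 7. The genotype was therefore the difference that the labels give between the groups, and irradiation was shared by both. The labels give no zygosity, sex, litter, batch or way in which the allele was made, nor do they say that the replicates are separate mice, so the p-values here speak to the spread among these libraries alone. Of 52636 genes in the deposited table, 15611 passed a filter on low counts in these 4 libraries, and the 15061 autosomal genes among them are described. The series was designed to ask how the R527C substitution leads to senescence in mice, and these 4 libraries address the genotypes after irradiation.

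Lamins A and C, both encoded by Lmna, are intermediate filament proteins that line the inner face of the nuclear envelope, bind chromatin and stiffen the nucleus. Lamin A is made as a precursor that is farnesylated and then cut by the protease Zmpste24, and faults in the protein or its processing cause laminopathies, some of them with features of early ageing. The spleen filters blood and removes old red cells through its red pulp macrophages, houses B and T cells in its white pulp, and in mice also makes red cells and granulocytes. Irradiation kills lymphocytes and dividing progenitors through the p53 pathway, after which the mouse spleen becomes a site of regrowth of blood cells, above all of the red cell lineage.

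The altered codon is shown first because it defines the mutant group. The codon of R527C lies in exon 9 of the 12 exons of Lmna-201, the transcript of lamin A, on chromosome 3 at chr3:88483854-88483856 (GRCm38, minus strand). The same codon is in exon 9 of the 10 exons of Lmna-203, which encodes lamin C. The reference sequence around it, from GENCODE M21, is printed in the sense of the transcript with the codon in capitals, and R527C replaces the arginine that this codon encodes by cysteine.
Lmna: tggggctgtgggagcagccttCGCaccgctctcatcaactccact
The counts do not show the codon, so the level of Lmna does not check the genotype. Lmna was at 186 and 101 CPM (normalised read count, scaled to library size with edgeR's trimmed mean of M-values, TMM) in wild-type replicates 1 and 2, and at 240 and 51.8 CPM in mutant replicates 1 and 2. In each genotype replicate 1 was the higher, and the mutant values lay on either side of the wild-type values. The log2 fold change (mutant minus wild type, as everywhere below) was 0.02 ± 0.79 (SE, 2 libraries a group), and without mutant replicate 1 it was -1.49, against 0.80 at the other end of the fits that left out a library.

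The 4 libraries held 13387859 and 12100784 counts in wild type and 12147309 and 16788531 counts in mutants. A floor of 3 counts, the most that a count of 0 allows, corresponded to 0.149 to 0.295 CPM and covers counting error only. The spleen label was matched by the levels of B cell, T cell, red pulp macrophage and erythroid genes, all given below. Replicates of a group stood well apart. In wild type, 24.6% of autosomal genes differed over 2-fold between the 2 replicates, with a correlation of log2 CPM across genes of 0.938, and in mutants the values were 41.3% and 0.853. Mutant replicate 1 was closer to wild-type replicate 1 (correlation across genes 0.942) than to mutant replicate 2, and mutant replicate 2 was closest to wild-type replicate 2 (0.946). The first principal component held 65.6% of the variance and placed replicate 1 of each genotype opposite to replicate 2 (-46.9 and -79.3 against 38.3 and 87.9 for wild type and mutant). Along this first component the replicates of a genotype were further apart than the genotypes. The second component held 22.2% of the variance and placed wild type (56.6 and 9.83) opposite to mutants (-48.6 and -17.9). Each gene is given by its 4 values.

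**Figure D1:**
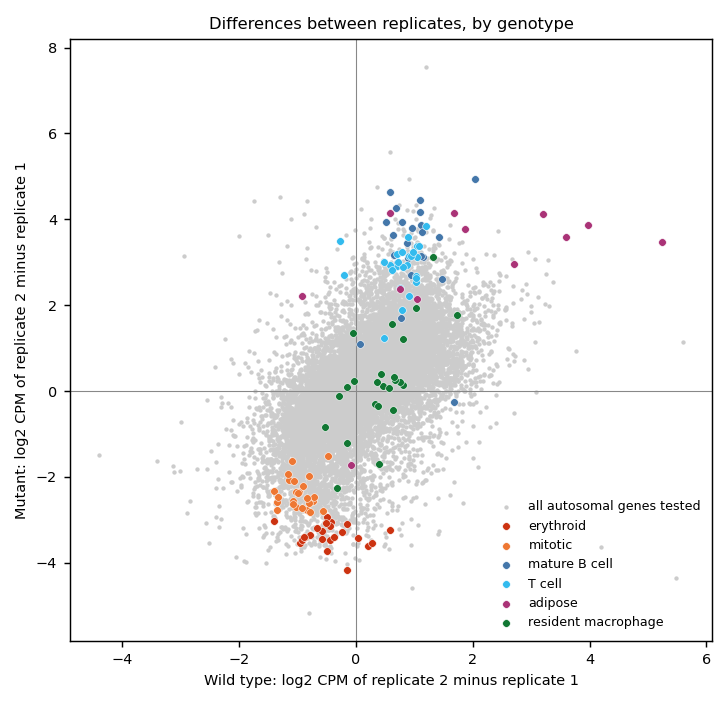
Difference between the 2 replicates in wild type (horizontal axis) and in mutants (vertical axis), in log2 CPM, for each autosomal gene tested (grey) and for the tested members of 6 gene lists (colours). Erythroid and mitotic genes lie low and T cell and B cell genes high on the mutant axis, where they spread further than on the wild-type axis, while resident macrophage genes lie nearer to the centre (median differences 0.17 in mutants and 0.45 in wild type).

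The spread between replicates had a direction that can be read in cell type genes. All 23 erythroid genes tested were lower in mutant replicate 2 than in mutant replicate 1, with a median difference of -3.40 in log2 CPM, and 4 of the 23 were higher in wild-type replicate 2 than in replicate 1, with a median of -0.49. All 26 T cell genes were higher in mutant replicate 2 than in mutant replicate 1 (median 2.97), and 24 of 26 were higher in wild-type replicate 2 (median 0.84). Over all 15061 genes the median differences were 0.17 in mutants and 0.04 in wild type. The 2 libraries of a genotype thus stood at different ratios of erythroid to T cell RNA, and those of the mutants were the further apart. In bulk tissue, fewer cells of a type and less RNA per cell cannot be told apart.

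The genes with the widest ratios between replicates are given next. Among genes with at least 20 CPM in the higher library, Saa3, an acute-phase serum amyloid, was at 0.79 and 2.45 CPM in wild type and at 3.25 and 704 CPM in mutants. Ccl8, Chil1, Gbp2b and Ifit1bl1 followed it, each with mutant replicate 2 above mutant replicate 1 and with overlapping groups. At the other end, Car1, a carbonic anhydrase of young red cells, was at 77.7 and 44.3 CPM in wild type and at 430 and 11.4 CPM in mutants, followed by Hist1h2ak, Slc15a2, Rnf212 and Hist1h1d. Slc15a2, a peptide transporter, was also the gene furthest apart in wild type, at 1.89 and 107 CPM against 60.9 and 2.48 CPM in mutants, so that its direction between replicates was opposite in the 2 genotypes. The next in wild type were Cfd, Car3, Steap4 and Me1, all higher in replicate 2, and Rbm44, Gdf3, Cdk5rap1, C1qtnf12 and Atp7b, all higher in replicate 1.

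The quasi-likelihood test of edgeR called 0 of 15611 genes (0%) at an adjusted p under 0.05, and the smallest adjusted p was 0.999981. At an unadjusted p under 0.05 it had 152 genes (0.974% of those tested). DESeq2 called 10 and limma-voom 0. The 10 were Saa3, Cyp2e1, Hp, Arg1 and 5 immunoglobulin variable segments, all higher in mutants, and Gmpr, lower in mutants. Arg1, and segments such as Ighv1-69, passed the low-count filter through the mutants alone, so their direction came with the filter. In edgeR, leaving out mutant replicate 1 gave 18 called genes and leaving out mutant replicate 2 gave 95, and leaving out either wild-type library gave 0. No gene below is therefore called by edgeR in the fit of the 4 libraries, and each fold change is given with its SE.

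Counting genes whose groups do not overlap gave a second view. Of the 15061 autosomal genes, 1266 (8.41%) had both mutant values above both wild-type values, and 1203 (7.99%) had both below, so the directions were nearly balanced. In 91 genes (0.604%) the lower mutant value was over 2-fold above the higher wild-type value, and in 11 genes (0.073%) the reverse held (0.5 CPM added to each value). Leaving out a library removes a condition, so both counts rose and cannot show what this excess rested on. Without mutant replicate 1 they were 832 above and 800 below, and without mutant replicate 2 they were 605 above and 837 below. Without wild-type replicate 1 they were 216 and 139, and without wild-type replicate 2 they were 739 and 107. Of the 91 genes, 54 were protein coding and 25 were immunoglobulin variable segments. An exact permutation test of 2 values against 2 cannot give a two-sided p below 0.333, so the counts carry no p.

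Of the 10 named genes that were higher in mutants, 3 (Msr1, Cd14 and Clec4n) are in the resident macrophage list and Fcgr4 is in the monocyte list. Fcgr4, an activating receptor for IgG, was at 13.2 and 13.4 CPM in wild type and at 49.9 and 61.0 CPM in mutants. Its wild-type values were nearly equal, both mutant values were far above them, and the log2 fold change was 2.06 ± 0.43. Fcgr3, a second such receptor that lies close to Fcgr4 on chromosome 1 (chr1:171051174-171064935 and chr1:171018920-171029761, GRCm38), was at 15.6 and 16.7 CPM in wild type and at 50.5 and 66.2 CPM in mutants. The groups were again apart (1.85 ± 0.43), although reads of related receptor genes could be counted for either. Msr1, a scavenger receptor of macrophages, was at 4.58 and 4.42 CPM in wild type against 17.8 and 46.2 CPM in mutants (2.83 ± 0.62). Cd14, the coreceptor for lipopolysaccharide, was at 6.79 and 6.64 CPM against 22.1 and 26.1 CPM (1.84 ± 0.48). Clec4n, the C-type lectin dectin-2, was at 33.9 and 27.6 CPM against 95.6 and 87.6 CPM (1.57 ± 0.43). Ccl6, a chemokine of myeloid cells, was at 10.7 and 12.9 CPM against 29.5 and 160 CPM (3.0 ± 0.82). The mutant replicates were within 3-fold of each other except in Ccl6, where replicate 2 stood further above replicate 1.

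The other 4 named genes follow. Cyp2e1, a cytochrome P450 of hepatocytes, was at 1.5 and 3.79 CPM in wild type and at 20.1 and 38.2 CPM in mutants, and it had the smallest p (3.46 ± 0.69). Hp encodes haptoglobin, the plasma protein that binds free haemoglobin, and was at 4.82 and 5.37 CPM against 24.1 and 111 CPM (3.73 ± 0.80). Arg1, arginase of the liver and of some macrophages, was at 0.158 and 0.711 CPM against 4.43 and 90.7 CPM. Its mutant values lay 20.5-fold apart, so the log2 fold change of 6.75 ± 1.61 rested mostly on mutant replicate 2. The wild-type values of Arg1 rested on 2 and 9 reads, and that of replicate 1 lay under the floor of 3 counts. Arg1 passed the low-count filter (minimum count 10) through the mutants alone, so its direction came with the filter. Nxpe5 was at 1.03 and 1.82 CPM against 10.1 and 9.04 CPM (2.75 ± 0.68).

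**Figure D2:**
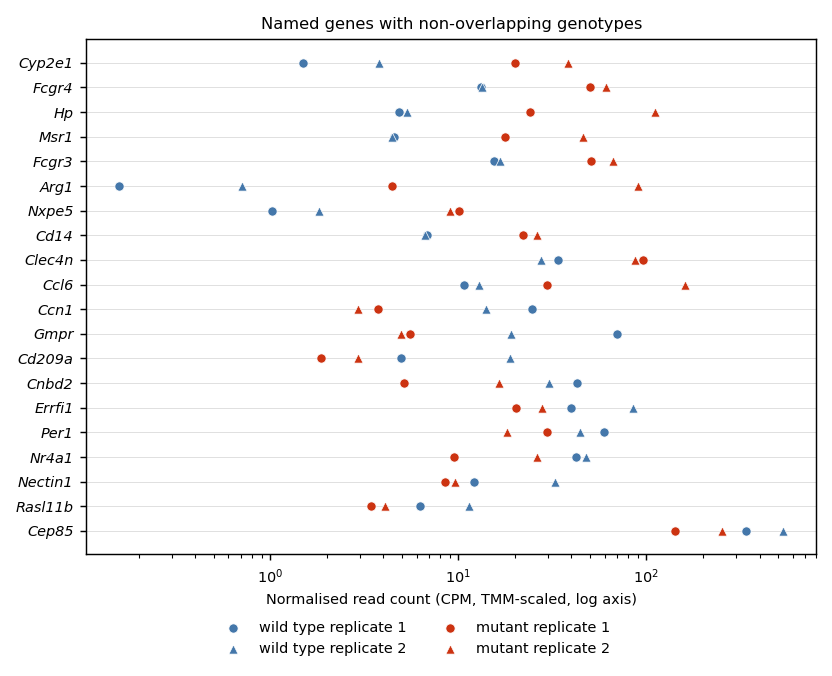
Normalised read counts (CPM, log axis) in each of the 4 libraries for the 10 named genes that were higher (upper rows) and the 10 that were lower (lower rows) in mutants. Circles are replicate 1 and triangles replicate 2 of wild type (blue) and mutants (red), and in each row the colours do not overlap, which was required of these genes.

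The 10 named genes that were lower in mutants began with Ccn1 by p. Ccn1, a matrix protein that is switched on by stretch and serum, was at 24.6 and 14.1 CPM in wild type and at 3.74 and 2.93 CPM in mutants (-2.53 ± 0.58). Errfi1, a feedback inhibitor of the EGF receptor, was at 39.7 and 85.2 CPM against 20.4 and 27.8 CPM. Nr4a1, a nuclear receptor and early response gene, was at 42.3 and 47.7 CPM against 9.45 and 26.2 CPM (-1.33 ± 0.58). Each had its higher mutant value below its lower wild-type value, as the choice of genes required. Gmpr, a GMP reductase, was at 69.5 and 19.2 CPM against 5.51 and 4.97 CPM (-3.08 ± 0.71), with close mutant values and wild-type values further apart. Cd209a, a lectin of dendritic cells and monocytes, was at 4.97 and 19 CPM against 1.87 and 2.93 CPM. Per1, a repressor of the circadian clock, was at 59.7 and 44.3 CPM against 29.5 and 18.3 CPM. The hour of sampling is not in the labels. Cnbd2, Nectin1, Rasl11b and Cep85 completed the 10, with log2 fold changes from -1.76 (Cnbd2) to -1.14 (Cep85).

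The lists of cell type and pathway genes were compared by the count of their members whose groups did not overlap and by the mean level of the list in each library. The reference is the value over all autosomal genes tested, of which 8.41% were above, 7.99% below, 7128 of 15061 had a log2 fold change above 0, and the median was -0.02. The lists were chosen with earlier results of these data known, so their shares are descriptions and not tests.

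**Figure D3:**
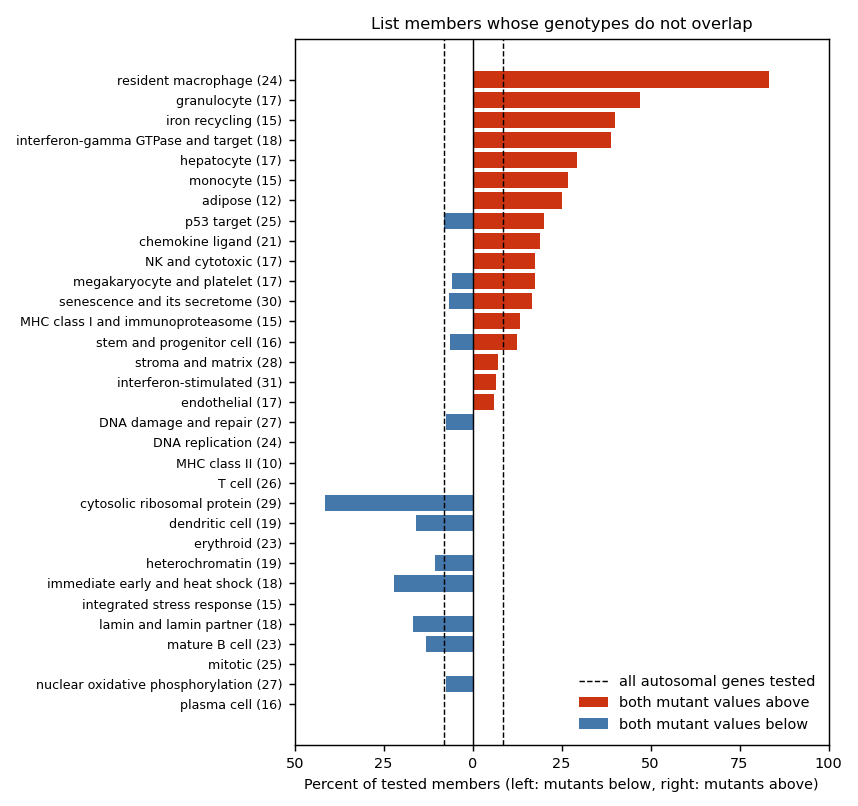
Percent of the tested members of each list with at least 10 tested members (number in brackets) whose 2 mutant values were both above (red, to the right) or both below (blue, to the left) the 2 wild-type values. The dashed lines give the same percent over all autosomal genes tested (8.41 above and 7.99 below), and the resident macrophage bar is the longest, at 83.3%. The lists, unlike the reference, were chosen with earlier results of these data known. The granulocyte bar includes Mpo and Prtn3, which passed the low-count filter through the mutants alone.

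In resident macrophage genes the genotypes were mostly further apart than the replicates. All 24 tested genes of the list had a log2 fold change above 0, and in 20 of them (83.3%) both mutant values were above both wild-type values. In 0 were both below. The median log2 fold change was 1.16, a 2.24-fold difference, and the list's mean log2 CPM was 5.2 and 5.64 in wild type and 6.49 and 6.73 in mutants. Of the 24 genes, 11 had p under 0.05, and 0 were called. In 6 genes the groups were over 2-fold apart. The 24 genes summed to 1706 and 2944 CPM in wild type against 3371 and 5594 CPM in mutants. The count of 20 was 19 with no scaling factor. It was 20 to 24 when a library was left out, but this range cannot show that the count is stable. Leaving out a library removes a condition, so the count could hardly fall. Over all autosomal genes the same step raised the count from 1266 to between 3431 and 6107. Without mutant replicate 2, 1 member of the list had its remaining mutant value below both wild-type values.

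The genes of the list cover several tasks of these cells. C1qc, a chain of the complement protein C1q, was at 158 and 202 CPM in wild type and at 419 and 483 CPM in mutants (1.33 ± 0.52). Its partner chain C1qb was at 104.0 and 154 CPM against 289 and 304 CPM, and C1qa was at 133 and 211 CPM against 321 and 380 CPM. All 3 chains, encoded side by side on chromosome 4, had both mutant values above the wild type. Fcgr1, the high-affinity receptor for IgG, was at 5.53 and 4.90 CPM against 14.9 and 15.8 CPM. Csf1r, the receptor for the growth factor on which macrophages depend, was at 71.8 and 125 CPM against 214 and 236 CPM (1.19 ± 0.52). Mertk, a receptor for the uptake of dying cells, was at 20.5 and 32.0 CPM against 76.5 and 55.8 CPM, and its relative Axl was at 93.2 and 117 CPM against 237 and 193 CPM. In all 7 the mutant replicates differed by less than the genotypes. Cd5l, a secreted survival protein of macrophages, was at 39.2 and 35.3 CPM against 211 and 91.1 CPM. Cd163, the receptor for haptoglobin bound to haemoglobin, was at 10.3 and 8.14 CPM against 66.7 and 13.6 CPM. Mrc1, the mannose receptor, was at 29.3 and 38.4 CPM against 174 and 52.6 CPM. In these 3 genes mutant replicate 1 was over 2-fold above mutant replicate 2, and the lower mutant value was still above both wild-type values.

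The 4 genes whose groups overlapped were Ctss, Marco, Timd4 and Lyz2. Lyz2, the lysozyme of macrophages and granulocytes, was at 374 and 931 CPM in wild type and at 196 and 1707 CPM in mutants. Marco, a scavenger receptor of marginal zone macrophages, was at 79.6 and 264 CPM against 146 and 500.0 CPM. Replicate 2 was the higher in each genotype for all 4.

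**Figure D4:**
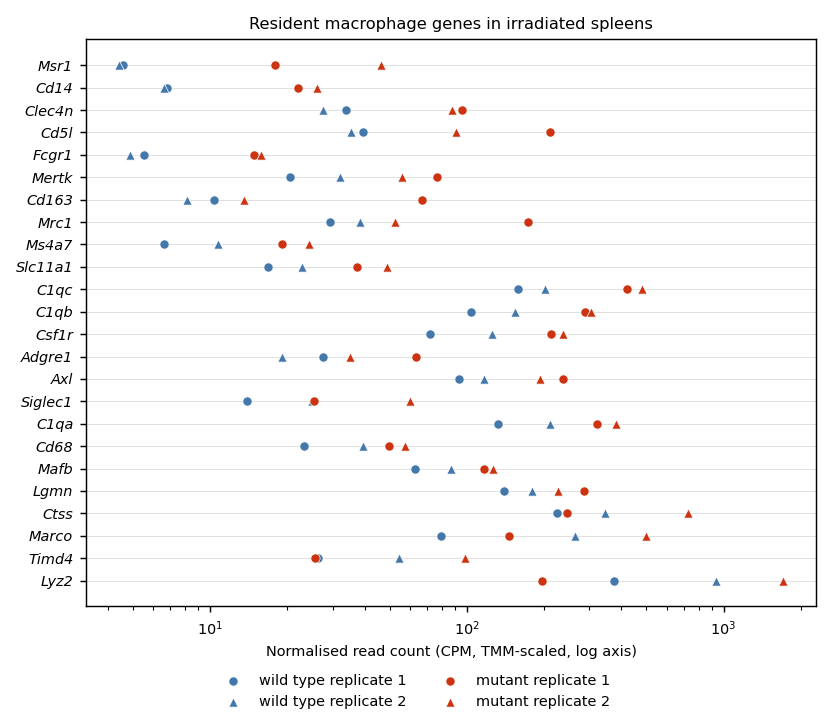
Normalised read counts (CPM, log axis) of the 24 resident macrophage genes tested in each of the 4 libraries, in order of p. Circles are replicate 1 and triangles replicate 2 of wild type (blue) and mutants (red); in the upper 20 rows all red symbols lie to the right of all blue symbols, and in the lower 4 rows they overlap.

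Since these genes were higher together, the sequence before their start sites is shown for 4 of them and for Fcgr4. PU.1, the transcription factor that macrophages need, binds sites with the core GAGGAA. RefSeq windows (GRCm38.p6) of 250 bases before the start were found for 12 of the 20 genes that did not overlap, and 8 of the 12 held GAGGAA on either strand (TTCCTC when read on the other), counting a gene once if any of its windows did. Over all 27025 genes of the table the share was 25.9% (23.3% of 32851 windows), and of the 4 resident macrophage genes that overlapped, 2 held it. The AP-1 motif TGACTCA was in 1 of the 12 (5.16% of all genes), and the interferon-stimulated response element was in 0 of the 12 (3.46%). A match is a description of the letters and not a bound site. Fcgr4, which belongs to the monocyte list and also held the core, is shown with 4 of the 8. The windows are Fcgr4 (chr1:171018676-171018925, plus strand), Fcgr1 (chr3:96293970-96294219, minus strand), Cd5l (chr3:87357631-87357880, plus strand), C1qb (chr4:136886201-136886450, minus strand) and C1qc (chr4:136892915-136893164, minus strand), each 5′ to 3′ in the sense of the gene with the PU.1 core in capitals.
Fcgr4: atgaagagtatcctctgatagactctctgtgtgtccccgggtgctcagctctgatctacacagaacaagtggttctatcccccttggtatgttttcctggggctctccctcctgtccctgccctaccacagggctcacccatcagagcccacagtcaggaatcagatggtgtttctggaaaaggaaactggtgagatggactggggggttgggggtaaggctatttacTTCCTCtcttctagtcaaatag
Fcgr1: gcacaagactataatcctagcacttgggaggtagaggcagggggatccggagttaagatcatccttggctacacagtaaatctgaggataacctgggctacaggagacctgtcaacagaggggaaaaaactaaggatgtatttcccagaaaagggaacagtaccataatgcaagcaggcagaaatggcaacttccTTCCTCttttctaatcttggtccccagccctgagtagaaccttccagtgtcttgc
Cd5l: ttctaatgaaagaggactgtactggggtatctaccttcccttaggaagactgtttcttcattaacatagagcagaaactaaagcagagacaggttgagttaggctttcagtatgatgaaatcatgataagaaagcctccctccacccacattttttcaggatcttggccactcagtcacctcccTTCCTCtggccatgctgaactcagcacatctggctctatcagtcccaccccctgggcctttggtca
C1qb: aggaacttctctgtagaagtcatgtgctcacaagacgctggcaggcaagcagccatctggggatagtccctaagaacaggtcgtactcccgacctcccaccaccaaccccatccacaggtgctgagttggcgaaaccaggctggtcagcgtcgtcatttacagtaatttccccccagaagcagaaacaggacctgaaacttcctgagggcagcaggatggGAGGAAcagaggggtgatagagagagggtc
C1qc: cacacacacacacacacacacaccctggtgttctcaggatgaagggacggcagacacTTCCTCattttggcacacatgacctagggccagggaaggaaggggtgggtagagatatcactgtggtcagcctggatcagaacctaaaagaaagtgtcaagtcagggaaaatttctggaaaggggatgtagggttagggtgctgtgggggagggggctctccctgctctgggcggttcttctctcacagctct
Each window holds the core at 1 place, and the place differs between the genes.

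Genes for iron recycling by red pulp macrophages were mainly higher in mutant replicate 1. Of 15 tested, 6 (40%) had both mutant values above and 0 below, 12 had a log2 fold change above 0, and the median was 0.55. Without mutant replicate 1 the median was 0.03. Spic, the transcription factor that red pulp macrophages require, was at 64.1 and 76.2 CPM in wild type and at 196 and 93.5 CPM in mutants (1.04 ± 0.54). Vcam1, an adhesion molecule of these macrophages and of stroma, was at 269 and 327 CPM against 891 and 532 CPM. Slc40a1, the iron exporter ferroportin, was at 231 and 243 CPM against 609 and 245 CPM. Its lower mutant value thus lay just above the higher wild-type value. Tfrc, the transferrin receptor, which red cell precursors express strongly, was at 4224 and 2383 CPM against 7167 and 663 CPM and followed the erythroid genes.

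Monocyte and granulocyte genes were above wild type in part. Of 15 monocyte genes, 4 (26.7%) were above and 0 below, with a median of 0.73 that turned to -0.23 without mutant replicate 2. Ly6c2, a surface marker of classical monocytes, was at 33.6 and 39.8 CPM in wild type and at 25.9 and 135 CPM in mutants. Ccr2, their chemokine receptor, was at 12.2 and 30.3 CPM against 20.6 and 40.8 CPM. Of 17 granulocyte genes tested of 20 listed, 8 (47.1%) were above and 0 below, with a median of 0.64 (0.52 to 1.28 when a library was left out). The log2 fold change was highest in Prtn3, Lcn2 and Mpo. Prtn3, a serine protease of primary granules, was at 0.158 and 0.711 CPM against 2.76 and 8.19 CPM (3.64 ± 1.09). Mpo, myeloperoxidase, was at 0.079 and 0.632 CPM against 3.25 and 4.27 CPM (3.37 ± 1.13), and its wild-type values rested on 1 and 8 reads. The wild-type values of Prtn3 rested on 2 and 9 reads. Both genes passed the low-count filter (minimum count 10) through the mutants alone, so their direction came with the filter. Both are part of the count of 8, the median and the list mean, and whether other members passed in the same way was not determined. Lcn2, lipocalin of secondary granules and an acute-phase protein, was at 5.45 and 1.58 CPM against 5.91 and 78.6 CPM (3.59 ± 1.25), so that mutant replicate 1 was near wild-type replicate 1. The more abundant genes of mature neutrophils overlapped: S100a8 was at 43.8 and 16.1 CPM in wild type and at 47.3 and 42.3 CPM in mutants, and S100a9 at 84.2 and 39.8 CPM against 78.8 and 77.8 CPM. The 8 genes above were Elane, Mpo, Prtn3 and Ctsg, proteins of primary granules, and Lcn2, Cxcr2, Csf3r and Padi4. Ngp, a secondary granule gene, was at 11.6 and 3.32 CPM against 4.04 and 1.94 CPM.

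Genes of 2 tissues outside the spleen, liver and fat, were measured beside these. All 17 hepatocyte genes had a log2 fold change above 0 (median 1.33), with 5 (29.4%) above and 0 below. The list's mean log2 CPM was 1.63 and 1.62 in wild type and 3.76 and 1.82 in mutants. Alb, serum albumin, was at 55.1 and 63.1 CPM against 263 and 34.7 CPM. Apoa1, the main protein of HDL, was at 6.32 and 6.48 CPM against 44.7 and 3.38 CPM. Most of the list was therefore high in mutant replicate 1 alone, and without that library the median was -0.60. Cyp2e1 and Hp, given above, were higher in mutant replicate 2 than in mutant replicate 1, against the direction of Alb. All 12 adipose genes tested were above 0, with a median of 2.79 that was 0.52 without mutant replicate 2 and 4.70 without wild-type replicate 2. Of the 12, 3 (25%) did not overlap, and the mean log2 CPM was 1.39 and 3.82 in wild type and 3.36 and 6.39 in mutants. Adipoq, the fat hormone adiponectin, was at 0 and 7.35 CPM against 2.95 and 49.7 CPM, and Car3, a carbonic anhydrase of fat and muscle, was at 2.13 and 31.4 CPM against 29.6 and 361 CPM. For both genes replicate 2 was far the higher in each genotype. Hp and Cyp2e1 are made by fat cells as well as by hepatocytes, and the part of adherent fat or liver in their values was not tested.

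Immunoglobulin variable segments, a set defined by the annotation and looked at after its values were seen, made up 25 of the 91 widely separated genes. Of 107 segments tested, 90 had a log2 fold change above 0 (median 1.26), 47 (43.9%) had both mutant values above both wild-type values, and 2 had both below. The 47 comprised 30 of 64 kappa segments, 17 of 40 heavy-chain segments and 0 of 3 lambda segments. Some segments passed the low-count filter through the mutants alone, so their direction came with the filter. Examples are Ighv1-69, at 0.158 and 0.316 CPM in wild type, and Ighv1-75, at 0.158 and 0.395 CPM. Such segments are part of the counts of 90, 47 and 25, and their number was not determined. The segments summed to 191 and 536 CPM in wild type and, in mutants, to 616 and 1234 CPM, so the groups did not overlap in the sum, although replicate 2 was the higher in each genotype. Igkv19-93 was at 3.32 and 2.92 CPM in wild type and at 45.7 and 16.1 CPM in mutants (3.30 ± 0.67). Igkv3-4 was at 0.158 and 0.948 CPM against 26 and 6.65 CPM (4.86 ± 1.11). Both were higher in mutant replicate 1 than in mutant replicate 2. The count of 47 became 88 without wild-type replicate 2 and 82 without mutant replicate 1, and near-identical segments can share reads. These segments are joined and transcribed in B lineage cells, most strongly in plasma cells.

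Other genes of the B lineage mostly overlapped between the genotypes. Of 16 plasma cell genes, 0 were apart in either direction, 13 were above 0, and the median was 0.33 (-0.22 without mutant replicate 2), with means of 4.39 and 5.67 in wild type and 4.66 and 6.00 in mutants. Jchain, which joins secreted IgM and IgA, was at 451 and 1650.3 CPM against 1246 and 1873 CPM. Ighm, the constant region of IgM, was at 537 and 1729 CPM against 1654 and 1379 CPM, and both overlapped. For mature B cells, 1 of 23 genes had a log2 fold change above 0 and the median was -0.65, and the mean log2 CPM was 5.61 and 6.59 in wild type and 2.92 and 6.34 in mutants. The mutant with low B cell genes was replicate 1, and without it the median was 0.22. Cd79a, a signalling chain paired with surface immunoglobulin, was at 163 and 356 CPM against 19.8 and 264 CPM. Fcmr, the IgM receptor of B cells, was at 49.0 and 70.4 CPM against 2.46 and 44.9 CPM. Blk, a B cell kinase, was at 45.5 and 88.6 CPM against 2.76 and 44.9 CPM. In Fcmr, Blk and Tnfrsf13c, the BAFF receptor, the higher mutant value was just under the lower wild-type value, so these 3 genes (13% of the list) counted as lower. When mutant replicate 2 was left out, the median of the mature B cell list was -3.33, which describes mutant replicate 1 alone on the mutant side.

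T cell, dendritic cell and MHC class II genes were likewise lowest in mutant replicate 1. The mean of 26 T cell genes was 4.96 and 5.73 in wild type and 3.22 and 6.18 in mutants, with 0 apart in either direction, 13 above 0 and a median of -0.05 that became 0.78 without mutant replicate 1 and -2.22 without mutant replicate 2. Lck, the kinase of the T cell receptor, was at 121 and 203 CPM against 39.6 and 210 CPM. The mutants lay on both sides of the wild type. For 10 MHC class II genes the mean was 6.88 and 8.0 against 5.17 and 7.70, with 0 above 0, 0 apart and a median of -0.46 (0.21 without mutant replicate 1). Cd74, the invariant chain, was at 978 and 2348 CPM against 342 and 2228 CPM. Of 19 dendritic cell genes, 3 (15.8%) were below and 0 above, and the median was -0.26 (0.24 without mutant replicate 1).

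**Figure D5:**
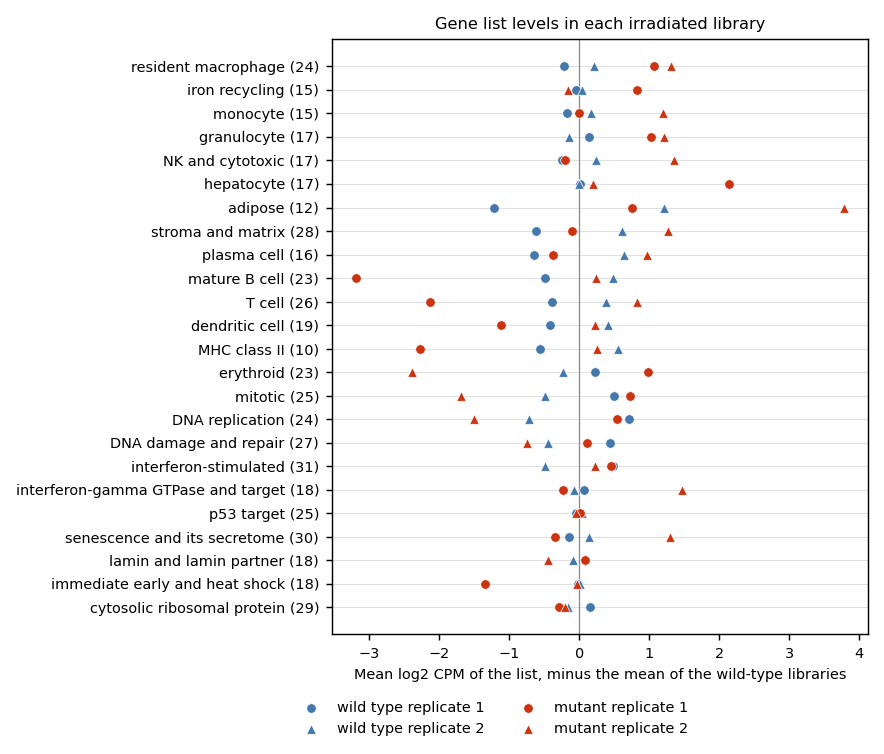
Mean log2 CPM of the tested members of 24 gene lists (number in brackets) in each library, relative to the mean of the 2 wild-type libraries. Circles are replicate 1 and triangles replicate 2 of wild type (blue) and mutants (red). The red symbols are to the right of both blue symbols for resident macrophage (6.49 and 6.73 against 5.2 and 5.64), granulocyte and hepatocyte genes. They are to the left of both for ribosomal protein and for immediate early and heat shock genes. For erythroid, mitotic, T cell and DNA replication genes they are on opposite sides of 0. The granulocyte means include Mpo and Prtn3, which passed the low-count filter through the mutants alone.

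Genes of cytotoxic cells and targets of interferon-gamma were, on average, highest in mutant replicate 2. Of 17 NK and cytotoxic genes, 3 (17.6%) were above and 0 below (median 0.59, and -0.22 without mutant replicate 2). Gzma, granzyme A, was at 15.6 and 16.0 CPM in wild type and at 32.2 and 43.5 CPM in mutants (1.26 ± 0.44), with the groups apart. Gzmb, granzyme B, was at 6.47 and 6.00 CPM against 8.86 and 62.4 CPM. Ncr1, a receptor of NK cells, was at 1.5 and 2.37 CPM against 4.83 and 6.75 CPM. Of 18 interferon-gamma GTPases and targets, 7 (38.9%) were above and 0 below, 17 had a log2 fold change above 0, and the median was 1.01. The count was 4 with no scaling factor, and the median was 0.14 without mutant replicate 2. Gbp8, a guanylate-binding protein, was at 26.4 and 34.0 CPM against 68.7 and 105.0 CPM (1.52 ± 0.46). Iigp1, an immunity-related GTPase, was at 75.6 and 82.7 CPM against 101 and 348 CPM. Cxcl9, a chemokine induced by interferon-gamma, was at 64.3 and 68.2 CPM against 20.2 and 391 CPM, so its mutant values lay on either side of wild type. Reads of the closely related Gbp genes may be shared.

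Genes induced by type I interferon were ordered by replicate in wild type. Of 31 such genes, 0 were higher in wild-type replicate 2 than in replicate 1 (median difference -1.03), and 10 were higher in mutant replicate 2 than in mutant replicate 1 (median -0.56). Between the genotypes, 2 (6.45%) were above and 0 below, 27 were above 0 and the median was 0.26 (-0.04 without wild-type replicate 2). Ifi44 was at 33.9 and 11.2 CPM in wild type and at 94.4 and 64.1 CPM in mutants (1.81 ± 0.63). Stat2, a transcription factor of this pathway, was at 109 and 85.8 CPM against 129 and 129 CPM. Rsad2, an antiviral enzyme, was at 1823 and 1311 CPM against 3013 and 318 CPM, and Isg15 was at 1379 and 836 CPM against 1748 and 318 CPM. These abundant members were low in mutant replicate 2, where the GTPases were high. In MHC class I, 2 of 15 genes (13.3%) were above and 0 below, with a median of 0.16 (-0.47 without mutant replicate 2). B2m, the light chain of class I molecules, was at 2006 and 1724 CPM in wild type and at 3578 and 3904 CPM in mutants. Its replicates were close in each genotype, and the log2 fold change was 1.0 ± 0.62. H2-D1, a heavy chain, was at 965 and 1232 CPM against 1329 and 1847 CPM.

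Chemokine ligands had a median of 1.19 over 21 tested genes, with 4 (19%) above and 0 below, and without mutant replicate 2 the median was -1.14. Ccl24, an eosinophil attractant, was at 6.87 and 10.3 CPM in wild type and at 22.6 and 16.5 CPM in mutants. Ccl3, a chemokine of activated macrophages, was at 0.947 and 1.74 CPM against 2.86 and 6.61 CPM. Ccl2, the monocyte attractant, was at 2.37 and 2.37 CPM against 1.77 and 13.6 CPM and overlapped. Cxcl13, the B cell attractant of follicles, was at 116 and 234 CPM against 55.7 and 672 CPM.

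Red cell and proliferation genes had no common direction in the mutants. The mean of 23 erythroid genes was 10.20 and 9.75 in wild type and 10.95 and 7.59 in mutants, so that mutant replicate 1 was the highest and mutant replicate 2 the lowest of the 4 libraries. Hba-a1, an alpha globin, was at 20515 and 30710 CPM in wild type and at 48099 and 5103 CPM in mutants, and globin genes held 4.28% and 6.17% of the counts in wild type and 10.3% and 1.30% in mutants. Of 23 erythroid genes 0 were apart, and the median of 0.02 became -2.51 without mutant replicate 1 and 0.96 without mutant replicate 2. For 25 mitotic genes the mean was 7.90 and 6.92 against 8.13 and 5.73, with 0 apart. Mki67, the marker of dividing cells, was at 3249 and 1824 CPM against 4296 and 631 CPM. For 24 DNA replication genes it was 7.73 and 6.31 against 7.57 and 5.52, with 0 apart, 1 above 0 and a median of -0.28. All 25 mitotic and all 24 replication genes were higher in replicate 1 of each genotype. The medians turned positive without mutant replicate 2 (0.72 and 0.47) and without wild-type replicate 1 (0.49 and 0.54).

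Genes of the p53 response were level between the groups as a list, while a few stood apart. The mean of 25 p53 targets was 5.08 and 5.17 in wild type and 5.14 and 5.08 in mutants, the closest agreement of the 4 libraries among the lists shown, with 5 (20%) above, 2 (8%) below and a median of 0.15 (-0.07 without mutant replicate 1). Cdkn1a, the cell cycle inhibitor p21, was at 43.1 and 44.4 CPM in wild type and at 133 and 56.1 CPM in mutants (1.11 ± 0.54). Both mutants were above, and mutant replicate 1 was 2.37-fold above mutant replicate 2. Trp53inp1, a p53 target that promotes cell death and autophagy, was at 150 and 185 CPM against 315 and 263 CPM (0.79 ± 0.50). Ccng1, cyclin G1, was at 111 and 93.8 CPM against 174 and 165 CPM (0.72 ± 0.46). Zmat3, an RNA-binding tumour suppressor, was at 10.1 and 17.0 CPM against 21.7 and 21.8 CPM. Ddit4, an inhibitor of mTORC1, was lower, at 83.8 and 111 CPM against 50.8 and 60.6 CPM, and Plk3 was at 14.0 and 13.2 CPM against 4.14 and 11 CPM. The share of the list below, 8%, was near the 7.99% over all autosomal genes tested. Mdm2, which degrades p53, was at 95.6 and 89.5 CPM against 109 and 82.3 CPM (0.05 ± 0.45), Bax was at 37.6 and 50.9 CPM against 37.8 and 45.1 CPM, and Trp53 itself was at 111 and 73.9 CPM against 93.4 and 63.9 CPM (-0.23 ± 0.48). These 3 overlapped between the genotypes.

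Senescence genes were examined because the series was designed around senescence. Cdkn2a, which encodes the cell cycle inhibitors p16 and p19Arf, was at 1.26 and 2.69 CPM in wild type and at 6.30 and 6.8 CPM in mutants. The mutant values were over 2-fold above the wild-type values, with a log2 fold change of 1.73 ± 0.73. Of the 30 genes of the list, 23 had a log2 fold change above 0, 5 (16.7%) were above and 2 (6.67%) below, and the median of 0.57 became -0.36 without mutant replicate 2. Mmp13, a collagenase, was at 1.58 and 2.05 CPM against 8.27 and 2.53 CPM, and Vegfa, the vascular growth factor, was at 35.4 and 47.5 CPM against 58.6 and 85.1 CPM. Il1b, a cytokine of activated macrophages, was lower, at 12.5 and 11.1 CPM against 7.68 and 7.30 CPM, and so was Plaur, the urokinase receptor, at 23.1 and 19.3 CPM against 6.8 and 16.3 CPM. The share of the list below, 6.67%, was under the 7.99% over all autosomal genes tested. Il6, a main secreted factor of senescent cells, was at 1.03 and 0.711 CPM against 0 and 1.49 CPM, and Gdf15 was at 8.29 and 6.16 CPM against 9.16 and 4.67 CPM. Cdkn2a was the gene of the list with the smallest p (0.053 in the edgeR test, unadjusted), so 0 of the 30 genes had p under 0.05.

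The genes of the nuclear lamina that stood apart between the genotypes were lower in mutants, at a share above the 7.99% over all autosomal genes tested. Of 18 lamin and lamin partner genes, 0 were above and 3 (16.7%) below, and the median was -0.15 (0.09 without wild-type replicate 1). The 3 were Banf1, which bridges DNA to lamina proteins, at 239 and 174 CPM against 165 and 149 CPM, Lemd2, an inner membrane protein, at 43.2 and 50.2 CPM against 40.0 and 38.4 CPM, and Icmt, which methylates farnesylated prelamin A, at 38.1 and 38.6 CPM against 37.6 and 30.2 CPM. The gaps between the groups were small against the spread in Lmna itself. Lmnb1, encoding lamin B1, was at 350 and 211 CPM against 362 and 134 CPM, and Lmnb2 was at 9.79 and 12.9 CPM against 5.81 and 11.6 CPM. Zmpste24 was at 47.5 and 38.2 CPM against 42.0 and 59.8 CPM (0.25 ± 0.43). Lbr, the lamin B receptor, was at 623 and 340 CPM against 734 and 146 CPM and was high where erythroid genes were high. Of 19 heterochromatin genes 2 (10.5%) were below and 0 above (median -0.19, and 0.20 without mutant replicate 2). Of 27 DNA damage and repair genes 2 (7.41%) were below and 0 above (median -0.23, and 0.23 without mutant replicate 2). Both shares were near the 7.99% over all autosomal genes tested. Xrcc1, a scaffold of single-strand break repair, was at 45.2 and 44.4 CPM against 32.5 and 29.1 CPM (-0.54 ± 0.41). Parp1, the sensor of strand breaks, was at 99.4 and 70.9 CPM against 57.9 and 68.0 CPM.

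The lists with the most members below wild type were those of ribosomal proteins and of early response genes. Of 29 cytosolic ribosomal protein genes, 12 (41.4%) were below and 0 above, 0 had a log2 fold change above 0, and the median was -0.21. The means were 10.35 and 10.03 in wild type and 9.90 and 9.99 in mutants, close together. With no scaling factor 3 genes were below, and without wild-type replicate 2 the count was 28. Without wild-type replicate 1, 12 were below and 4 above, with a median of -0.07, and without mutant replicate 1, 18 were below and 1 above. Rps9 was at 1628 and 1421 CPM against 1045 and 1179 CPM. Of 18 immediate early and heat shock genes, 4 (22.2%) were below and 0 above, and the median of -0.42 became 0.10 without mutant replicate 1. Besides Nr4a1, these were Hspa1b, a heat shock chaperone, at 6.95 and 9.48 CPM against 3.64 and 4.87 CPM, Ier2 at 55.5 and 40.4 CPM against 17.7 and 39.5 CPM, and Hsph1. Fos, the classical early gene, was at 8.45 and 7.90 CPM against 1.38 and 8.99 CPM and Jun at 18.6 and 21.4 CPM against 14.0 and 25.9 CPM, and both overlapped. Of 27 nuclear genes of oxidative phosphorylation, 2 (7.41%) were below, near the share over all genes, while 2 of the 27 had a log2 fold change above 0 (median -0.22, and 0.15 without wild-type replicate 1). Mitochondrially encoded RNA held 3.64% and 4.44% of the counts in wild type and 2.38% and 5.4% in mutants.

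The remaining lists had at most 3 members apart in 1 direction. Over all autosomal genes tested, 8.41% were above and 7.99% below. Of 28 stroma and matrix genes, 2 (7.14%) were above, although 24 had a log2 fold change above 0 and the median was 0.70, which became -0.27 without mutant replicate 2. Dcn, decorin, was at 40.4 and 222 CPM in wild type and at 83.6 and 496 CPM in mutants, higher in replicate 2 of each genotype. Of 17 endothelial genes 1 (5.88%) was above. It was Stab1, a scavenger receptor of sinus lining cells, at 12.1 and 26.9 CPM against 31.7 and 32.8 CPM. Of 17 megakaryocyte and platelet genes 3 (17.6%) were above and 1 (5.88%) below. Of 16 stem and progenitor cell genes 2 (12.5%) were above and 1 (6.25%) below. In the latter list Myb, a transcription factor of progenitors, was the lower, at 43.6 and 35.0 CPM against 30.4 and 28.6 CPM. Neither direction was found in the 15 genes of the integrated stress response, the 7 B cell precursor genes, the 5 eosinophil, basophil and mast cell genes or the 1 pancreatic gene tested.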

How the data were processed

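RNA sequencing of spleen was deposited as 1 table of read counts per gene for 8 libraries. The deposited values are whole-number counts, as the values themselves show, and were not normalised by the authors. The tools named are featureCounts, Subread and Trim Galore, and the builds mm10 and hg38, per the submitters' processing notes. Not given in the sources used here are their versions, the annotation, the strand setting and the treatment of multi-mapped reads. Hence reads of near-identical genes (immunoglobulin segments, globins, histones, Gbp and Fcgr genes) and of overlapping or antisense genes can fall to either. The growth protocol in the labels describes human cells and was not used. All lines name a gene (0 without), and 0 columns belong to no sample.

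Symbols and coordinates came from GENCODE M21 (GRCm38), which matched 52403 of 52636 identifiers without version (49035 with it), leaving 233. The 4 irradiated libraries were fitted alone with edgeR 4.0.16 (R 4.3.3): TMM scaling, filterByExpr (minimum count 10, minimum total 15), quasi-likelihood F test on genotype with 2 residual degrees of freedom, and Benjamini-Hochberg adjustment over all 15611 genes at 0.05. The common dispersion was 0.276. List means, library correlations and the principal components used edgeR's log2 CPM with a prior count of 2, and gaps between groups and list differences between replicates used log2 of CPM + 0.5. Scripts were tested on simulated data. Alternatives were RLE factors, no scaling, 2 other filters, DESeq2 1.42.0, limma-voom (limma 3.58.1), a replicate block, a fit of all 8 libraries and leaving out each library.

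The members and lists were chosen with earlier results of these data known. Named genes were autosomal with an annotated symbol, without predicted genes or antigen receptor segments: the 10 smallest p in each direction among genes with at least 5 CPM on average and groups that did not overlap, up to 3 such genes of each list, Lmna, Lmnb1, Lmnb2, Zmpste24, Cdkn1a, Cdkn2a, Trp53 and Mdm2, the widest replicate ratios above 20 CPM, and the 3 most abundant members of a list. Other list members that are named, and the immunoglobulin segments, were chosen after their values were seen. Unirradiated libraries entered only the fit of all 8.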

Additional observations from a re-analysis of the deposited data

How the results depend on the processing

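No edgeR call was made in the fit of the 4 libraries, or with RLE factors, no scaling, a filter of 1 CPM in 2 libraries, the replicate block, all 8 libraries in 1 fit, or limma-voom. With no low-count filter 47 genes were called, with DESeq2 10, and with 1 library left out between 0 and 95. Genes at an unadjusted p under 0.05 numbered 458 with no low-count filter, 229 with DESeq2, 461 with the replicate block, 696 in the fit of all 8 libraries, and 51 (without wild-type replicate 1) to 1309 (without mutant replicate 1) with a library left out. Genes with both mutant values above numbered 2554 with no low-count filter and 3431 to 6107 with a library left out, and those below 1826 and 3882 to 5504, since more genes or fewer samples were compared. Widely separated genes then numbered 216 to 832 above and 107 to 837 below. With a library left out, the lone library was assumed to vary like the other group. Most of the 83 named genes were chosen for groups that do not overlap, so leaving out a library could hardly turn their sign. Of the 83, 77 kept their sign under every alternative. The exceptions, with the range of log2 fold changes when a library was left out, were Icmt (-0.36 to 0.036), Lmnb1 (-1.09 to 0.43), Lmnb2 (-0.90 to 0.021), Trp53 (-0.55 to 0.086), Mdm2 (-0.19 to 0.30) and Lmna (-1.49 to 0.80). Lmna was also at -0.10 with no scaling, -0.19 with limma-voom and -0.30 with the replicate block. The cause was not tested. Of 35 list medians, 29 kept their sign under the 8 alternatives that keep all 4 libraries, and 7 also with each library left out: resident macrophage, iron recycling, granulocyte, eosinophil, basophil and mast cell, interferon-gamma GTPase, adipose and ribosomal protein. The granulocyte median includes Mpo and Prtn3, which passed the low-count filter through the mutants alone. The labels do not say that equal replicate numbers are paired, and there are 2 pairs. The differences between replicates correlated at 0.538 across genes between the genotypes. Depth limits genes under the floor of 3 counts.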
